A study of Mus musculus with 6 samples.

Results

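The glandular kallikreins form a family of secreted serine proteases, and Amy1 encodes salivary amylase. 9 kallikrein genes (Egfbp2, Klk1, Klk1b4, Klk1b5, Klk1b11, Klk1b21, Klk1b22, Klk1b24 and Klk1b27) and Amy1 were followed here in mouse myocardium, 10 genes of the 27307 gene symbols on the array. They were chosen from the same contrast on these arrays, with their values known, so the differences between groups are given as a description. Where limma thresholds are named for them, the counts only place these probes beside the rest of the array and are not read as a test. Membership rested on the gene symbol of a probe, and all 11 probes of the 10 genes are accounted for: 1 probe for each kallikrein and 2 for Amy1.

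Both groups were male C57BL/6J mice with the cardiac Clk4 deletion (Clk4-cKO), in which a tamoxifen-inducible Cre driven by the α-MHC promoter removes floxed Clk4 in cardiomyocytes. One group received AAV NEXN-WT, a virus encoding wild-type nexilin, and served as control. The other received AAV NEXN-S437E, which encodes a nexilin with a phosphorylation-mimic substitution, and the comparison asks how that form acts in the Clk4-deficient heart. The virus was given into a vein and its CMV promoter is not restricted to the heart. Each group had 3 animals and 1 Cy3 array per animal, and no mice without the deletion or without virus were analysed here. Because whole myocardium was profiled, fewer cells of a type and less RNA per cell cannot be told apart.

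Kallikreins are trypsin-like or chymotrypsin-like proteases that cut peptide hormones and growth factors out of larger precursors. In the mouse the family has expanded into a tandem cluster of close copies, made in abundance by the granular duct cells of the male submandibular gland under androgen control, and by the kidney and pancreas for Klk1. Amylase cleaves starch and is a product of salivary and pancreatic acinar cells.

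All 6 arrays lay on 1 slide and came from 1 scan. Between 41.9% and 47.8% of spots per array were well above background, meaning that the scanner software placed the spot clearly over its local background, and no spot was saturated. The 75th percentile of signal ran from 149 to 265 over the NEXN-WT arrays and from 106.9 to 157 over the NEXN-S437E arrays. All 8 cardiomyocyte markers examined were well above background on all 6 arrays. The Nexn probes did not separate the groups: the difference was -0.10 for one probe and 0.05 for the other on the log2 scale.

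The probe sequences matter here because the copies in the cluster are so similar. The following stretches come from the probes for Egfbp2, Klk1b26, Klk1b5 and Klk1b16, read 5′ to 3′ on the plus strand of chromosome 7 (mm9), at chr7:51272292-51272321 for both Egfbp2 and Klk1b26, chr7:51476026-51476055 for Klk1b5 and chr7:51396933-51396962 for Klk1b16. Capitals mark bases that differ from the Egfbp2 probe.
Egfbp2: tgtcacattgtcccatgttcttaataaagc
Klk1b26: tgtcacattgtcccatgttcttaataaagc
Klk1b5: tAtcacattgtcccatgttctCaataaagc
Klk1b16: tgtcacattgtTccatgttTtCaataaaAc
Klk1b26, a prorenin-converting enzyme, is not among the 10 genes, but its probe and that of Egfbp2 shared all 55 bases over which they overlap, since they lie 5 bases apart in the genome. The RefSeq table of GRCm38.p6 has no separate entry for Egfbp2 and lists it as a synonym of Klk1b26. The Klk1b5 probe matched that of Egfbp2 at 54 of 59 aligned bases (91.5%), without gaps and with a longest identical run of 19. The Klk1b16 probe matched it at 51 of 57 (89.5%). The Egfbp2 and Klk1b26 probes thus read 1 locus under 2 names, and signal on probes this alike can also come from transcripts of other copies.

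For amylase the corresponding comparison is with Amy2a5, a pancreatic amylase gene of the same cluster. Both stretches are on the minus strand of chromosome 3 (mm9), at chr3:113258911-113258940 for Amy1 and chr3:113084805-113084834 for Amy2a5, and capitals mark bases that differ from the Amy1 probe.
Amy1: gacccatttattgcaatccatgcagagtca
Amy2a5: gacccatttattgcaatccatgcTgaCtca
These probes matched at 39 of 46 aligned bases (84.8%). The Amy2a5 probe was well above background on no array.

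Egfbp2 encodes a binding protein and processing protease of epidermal growth factor. In NEXN-WT hearts its normalized log2 signal was 4.37, 4.19 and 6.78, and in NEXN-S437E hearts 7.08, 7.71 and 7.09. The probe was well above background on all 6 arrays. The groups did not overlap, but NEXN-WT replicate 3 sat only 0.30 below the lowest NEXN-S437E array, while the other NEXN-WT arrays were far lower. The group means were 5.11 ± 1.45 and 7.29 ± 0.36 (SD, n = 3 each), a log2 difference of 2.18 with a standard error of 0.65, or 4.53-fold. Without NEXN-WT replicate 3 the difference was 3.01, or 8.07-fold. The processed signals behind these values ran from 19.8 to 207. They were below the array's 75th percentile of signal everywhere except on NEXN-S437E replicate 2 (207 against 157).

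The first Klk1b26 probe followed the same order, at 4.49, 4.44 and 7.13 in NEXN-WT and 7.25, 7.96 and 7.17 in NEXN-S437E. Here NEXN-WT replicate 3 lay 0.05 below the lowest NEXN-S437E array. The second Klk1b26 probe, elsewhere in the transcript at chr7:51271516-51271671, read 2.92, 3.82 and 5.12 in NEXN-WT and 5.01, 5.88 and 5.14 in NEXN-S437E. On that probe the groups overlapped, and only 1 of the 3 NEXN-WT arrays was well above background. Over the 6 arrays the Egfbp2 probe correlated with the first Klk1b26 probe at r = 0.998 and with the second at r = 0.944, points that share animals and, for the first, nearly all their probe bases.

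Klk1b5 is a further member of the cluster. It read 3.95, 4.00 and 5.84 in NEXN-WT and 5.94, 6.83 and 6.03 in NEXN-S437E, well above background everywhere except NEXN-WT replicate 2. NEXN-WT replicate 3 again stood next to the other group, 0.10 below its lowest array. The means were 4.60 ± 1.08 and 6.26 ± 0.49 (SD, n = 3 each), a log2 difference of 1.67 with a standard error of 0.52, or 3.18-fold. Without NEXN-WT replicate 3 it was 2.29, a value that rests on 2 control arrays of which 1 was not well above background. The Klk1b5 and Egfbp2 probes correlated at r = 0.992 over the 6 arrays. How much of the Klk1b5 signal came from its near-identical neighbours was not tested. The Klk1b16 probe differs from that of Egfbp2 at 6 aligned bases against 5 for Klk1b5, with a longest identical run of 15 against 19. It read 1.56, 1.71 and 3.07 in NEXN-WT and 1.55, 2.65 and 2.55 in NEXN-S437E and was well above background on no array.

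Amy1 was read by a pair of probes. The first, at chr3:113258901-113258960, gave 4.28, 4.69 and 4.75 in NEXN-WT and 5.75, 5.84 and 5.72 in NEXN-S437E. The second, within chr3:113264624-113264775 and longer in the genome than its own length, as when a probe crosses an intron, gave 3.89, 4.42 and 4.56 in NEXN-WT and 5.86, 5.24 and 5.37 in NEXN-S437E. Both were well above background on all 6 arrays, and neither showed overlap between groups. NEXN-WT replicate 3 was the highest control array on both, yet it stayed 0.98 and 0.68 below the lowest NEXN-S437E array, unlike its place for Egfbp2 and Klk1b5. The first probe averaged 4.57 ± 0.26 and 5.77 ± 0.06 and the second 4.29 ± 0.35 and 5.49 ± 0.32 (SD, n = 3 each). The log2 difference was 1.20 on each, with standard errors of 0.16 and 0.24, or 2.30-fold and 2.29-fold. The 2 Amy1 probes correlated at r = 0.945 over the 6 arrays, and at 0.636 after removal of the group means. With Egfbp2 they correlated at r = 0.846 and r = 0.799, and at 0.563 and 0.333 after removal of the group means.

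**Figure D1:**
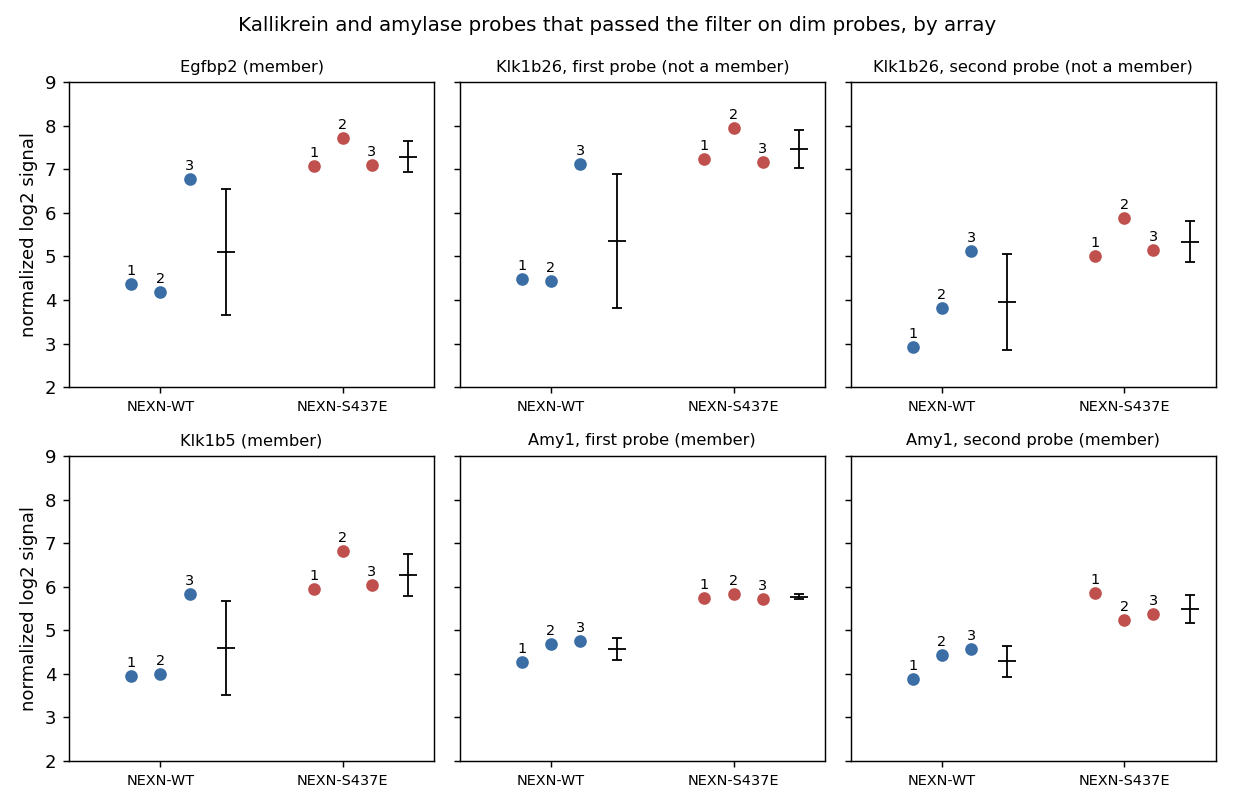
Normalized log2 signal (vertical axis) of the kallikrein and amylase probes that passed the filter on dim probes, by group. Numbered points are arrays, and black bars are the group mean ± SD (n = 3). NEXN-WT replicate 3 lies beside the NEXN-S437E arrays for Egfbp2 (6.78), Klk1b5 (5.84) and Klk1b26 (7.13 and 5.12) but not for Amy1 (4.75 and 4.56).

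The remaining 7 kallikreins had no probe well above background on any of the 6 arrays. They were Klk1, the tissue kallikrein that releases kinin from kininogen; Klk1b4; Klk1b22, which processes growth factor precursors; Klk1b21, Klk1b24 and Klk1b27, known from the Leydig cells of the testis; and Klk1b11. Their values lay between 1.54 and 3.91, with a median of 1.70, beside a median of 1.74 over all 28987 probes that were well above background nowhere. Values at this level have no order, and no fold is given for them.

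Klk1 read 1.94, 1.73 and 1.68 in NEXN-WT and 3.83, 1.80 and 2.90 in NEXN-S437E. No array was well above background, and the groups overlapped. Klk1b24 read 3.06, 1.58 and 3.11 in NEXN-WT and 1.57, 1.60 and 1.59 in NEXN-S437E, again with overlap. The groups overlapped for every one of the 7 undetected probes.

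**Figure D2:**
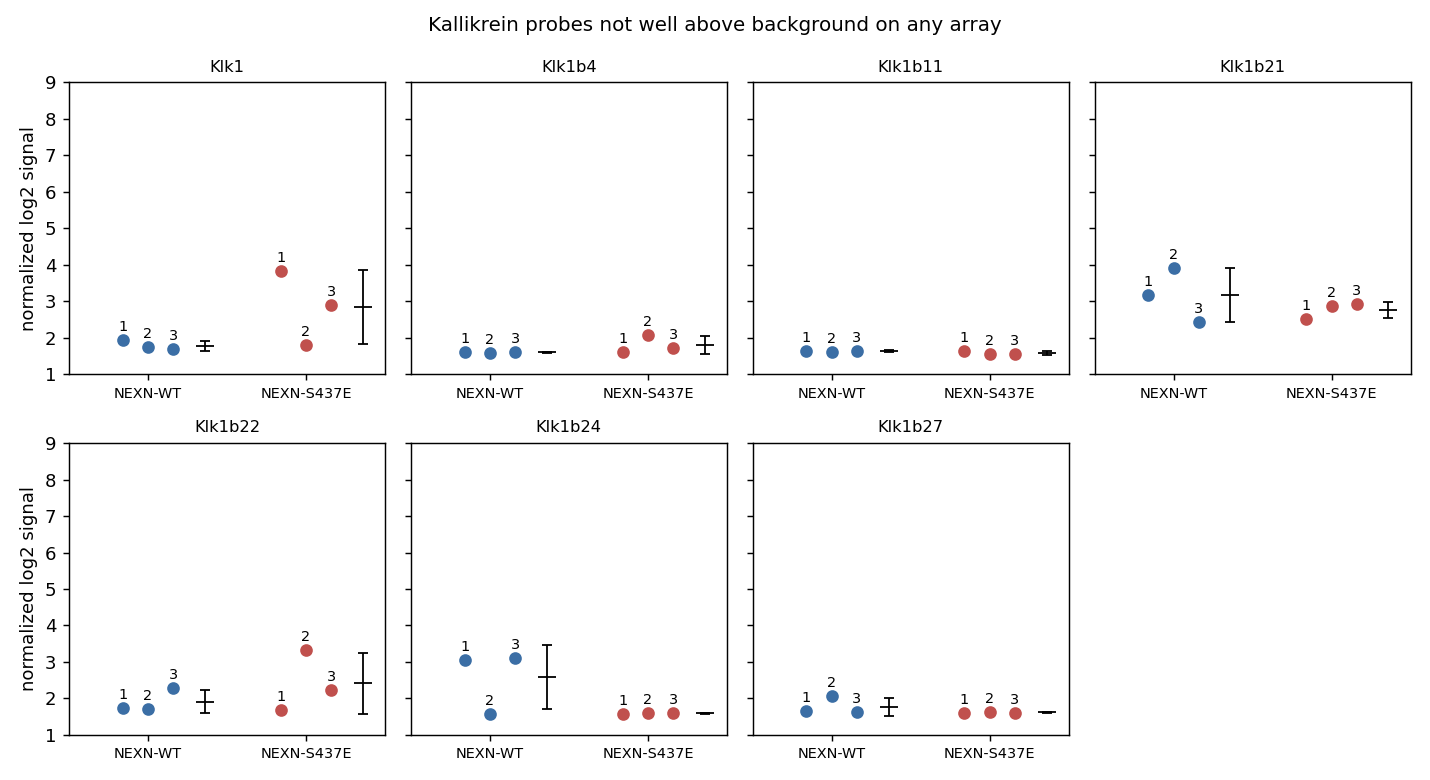
Normalized log2 signal (vertical axis) of the 7 kallikrein probes that were well above background on no array, by group. Numbered points are arrays and black bars the group mean ± SD (n = 3). All values lie between 1.54 and 3.91 and the groups overlap in every panel.

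Of the 11 probes, 4 passed the filter, under which a probe had to stand well above background throughout at least 1 group. Klk1b5 passed through the NEXN-S437E group alone. All 4 were at least 2-fold higher in NEXN-S437E at an unadjusted limma p under 0.05, against 0.604% of the 22998 probes tested that were called higher by this rule. Since the same contrast chose the genes, nothing is read from that count. Under the methods' t-test the 2 Amy1 probes alone were called. Without NEXN-WT replicate 1, Klk1b5 and the second Amy1 probe were lost, and without NEXN-WT replicate 2, Klk1b5. In all 4, every NEXN-S437E array was above every NEXN-WT array, as in 13.3% of the probes tested. None of the 4 had an adjusted limma p under 0.05, which 0.0087% of the probes tested reached in the higher direction.

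The size of the differences moved with the processing. Normexp background correction added an offset of 50 to signals of this size and was followed by a new quantile normalization. With it, the log2 difference was 1.07 for Egfbp2, 0.63 for Klk1b5 and 0.47 and 0.42 for the Amy1 probes. Egfbp2 alone remained past both thresholds. The arrays also differed in place on the slide: all NEXN-WT arrays and NEXN-S437E replicate 1 were in one row and NEXN-S437E replicates 2 and 3 in the other. With the row as a block, NEXN-S437E replicate 1 alone is set against the 3 NEXN-WT arrays, and the differences were 1.97 for Egfbp2, 1.34 for Klk1b5 and 1.18 and 1.56 for the Amy1 probes. With a single array in that arm, assumed to vary like the others, nothing is read from which calls were kept.

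**Figure D3:**
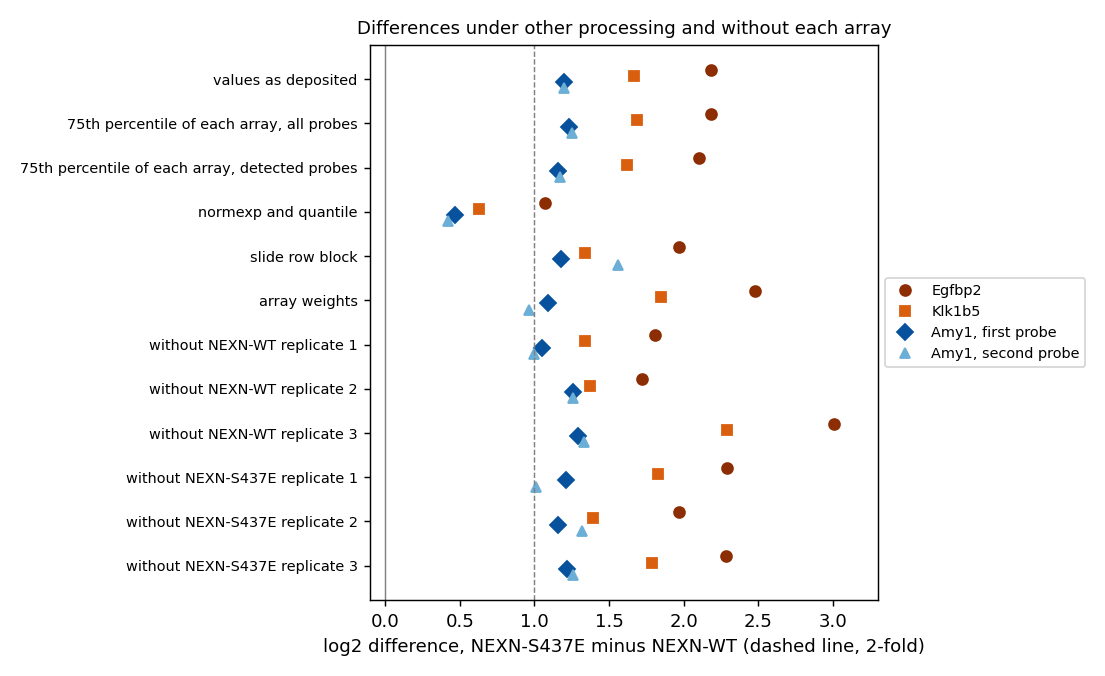
Log2 difference, NEXN-S437E minus NEXN-WT (horizontal axis), of the 4 kallikrein and amylase probes that passed the filter, under each alternative that could move it and without each array in turn; the dashed line marks a 2-fold difference. Leaving out NEXN-WT replicate 3 gives the highest values for Egfbp2 (3.01) and Klk1b5 (2.29), and normexp correction with its offset and quantile step gives the lowest for all 4 probes.

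Markers of the organs that normally make these proteins were examined on the same arrays. Of 20 salivary gland markers, 15 were well above background on no array, the secreted products Smr2, Smr3a and Mucl2 among them. Egf, a growth factor cut by kallikreins and also made outside the gland, was detected on all 6 arrays by 1 of its 3 probes and on no array by the others. That probe read 6.67, 7.05 and 7.38 in NEXN-WT and 7.05, 7.19 and 7.13 in NEXN-S437E, with overlap. The summed signal of the salivary list was 307 to 444 in NEXN-WT and 371 to 421 in NEXN-S437E.

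Of 20 pancreatic acinar markers, 14 were well above background on no array, and the list summed to 182 to 216 in NEXN-WT and 211 to 226 in NEXN-S437E. Its members detected everywhere were Cela1, an elastase (difference -0.54), and Ctrb1, a chymotrypsinogen (difference 0.33). Cela2a, a further elastase and the other pancreatic marker tested, read 4.42, 4.05 and 4.65 in NEXN-WT and 5.11, 5.12 and 5.26 in NEXN-S437E, without overlap. Its difference was 0.79 (SE 0.18, limma adjusted p = 0.146), it was detected on 2 of the 3 control arrays while its other probe was detected nowhere, and the median over the tested probes was 0.33. Of 11 kidney tubule markers, 8 were detected on no array and Slc22a6, an organic anion transporter, was detected on all 6 (difference 0.72). Aqp2, a water channel and the other kidney marker tested, gave -0.44, and the median over the tested probes was 0.14. The kidney list summed to 109 to 136 and 138 to 174. Cyp17a1, a steroid hydroxylase, was the one Leydig cell marker of the 5 measured that was detected everywhere (difference 0.70). Star, a cholesterol transport protein and the other Leydig marker tested, gave -0.86, a value that rests on mostly undetected signal in NEXN-S437E, since it was detected on 3 of the control arrays and 1 of the others. The median over the tested Leydig probes was -0.08, and the list summed to 72.8 to 97.2 and 79.9 to 127. No gene of these 4 lists passed both the 2-fold and unadjusted p thresholds.

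Hepatocyte markers gave a further view of NEXN-WT replicate 3. Serpina1a, a plasma protease inhibitor gene, read 4.89, 5.17 and 6.93 in NEXN-WT and 6.28, 5.96 and 6.41 in NEXN-S437E, so that its highest array was NEXN-WT replicate 3. Serpina1b, its close paralogue, read 5.66, 6.13 and 6.73 against 6.73, 6.70 and 6.97. Of the 8 hepatocyte markers, 5 were well above background on no array and none was called. The median over the tested hepatocyte probes was 0.59, and the list summed to 112 to 281 in NEXN-WT and 209 to 253 in NEXN-S437E. The part of liver-type or gland RNA in the kallikrein values was not tested.

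The other 6 glandular kallikreins of the cluster were mostly below detection. Klk1b26, which shares its locus with Egfbp2 and is no separate evidence, was called higher, and Klk1b1, Klk1b3, Klk1b8, Klk1b9 and Klk1b16 were well above background on no array. Of 13 kallikreins and kallikrein-related peptidases outside the glandular family, Klkb1 among them, 10 were detected nowhere. Klk8, a protease best known from brain and skin, was detected on all 6 arrays at 8.33 ± 0.42 in NEXN-WT and 8.22 ± 0.44 in NEXN-S437E (SD, n = 3 each). The 3 other amylase genes measured, Amy2a4, Amy2a5 and Amy2b, were detected on no array.

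Substrates and downstream receptors of the kallikreins were mostly measurable. In the kinin system 6 of 11 genes passed the filter and none was called, with a median difference of 0.18 beside 0.02 over all probes tested. Among growth factor and renin substrates and their receptors, 6 of 8 genes were tested and Egfr, the epidermal growth factor receptor, was called lower, a direction in which 2.02% of all probes tested were called. Its called probe read 9.71, 8.75 and 8.54 in NEXN-WT and 7.76, 7.83 and 8.32 in NEXN-S437E. The difference was -1.03 with a standard error of 0.32, and it did not hold after adjustment (limma adjusted p = 0.216). The other tested Egfr probes gave -0.83 and -0.38 and did not reach 2-fold. In glycogen and starch breakdown, a list of intracellular glycogen enzymes and the intestinal brush-border enzymes Sis and Mgam, 6 of 8 genes were tested and none was called (median difference 0.08).

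The wider neighbourhoods of both clusters were also read. Within 500 kb of a kallikrein probe, by the deposited coordinates, 24 further genes were tested on 31 probes, and the median difference was 0.08. The 2 probes called higher were both Klk1b26, and the 2 called lower were Clec11a, a secreted growth factor of bone marrow (-1.23, SE 0.46, limma adjusted p = 0.271), and Napsa, an aspartic protease. Over all probes tested, 0.604% were called higher and 2.02% lower. Napsa was well above background on all 3 NEXN-WT arrays and no NEXN-S437E array. Its NEXN-WT mean of 4.26 stood 1.17-fold above the mean of the dimmest signals well above background on the NEXN-S437E arrays. This is no lower bound on its difference (limma adjusted p = 0.146), since an undetected spot can lie above that signal. Near Amy1, Rnpc3, a spliceosome component, was the single further gene tested and its difference was -0.02.

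The genes most like Egfbp2, the one kallikrein probe of the 9 detected on all 6 arrays, were ranked by Pearson's r over the 6 arrays among 12940 genes. They were Abca6 (0.999), Klk1b26 (0.998), 1110032A03Rik (0.993), Dach1 (0.990) and Lypd2 (0.990), and 322 genes had r over 0.9. Lypd2 read 5.33, 5.48 and 7.00 in NEXN-WT and 7.52, 7.67 and 7.46 in NEXN-S437E, with NEXN-WT replicate 3 the highest of its control arrays. For the mean of the Amy1 probes the leading genes were Gm16283 (0.997), Tsacc (0.997), Irx3 (0.996), Selenbp2 (0.994) and Vac14 (0.993), with 608 genes over 0.9. These correlations share 6 animals in 2 groups and are given as a description.

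Upstream sequences of the cluster were compared as well. In RefSeq windows of GRCm38.p6 that run from 250 bases before to 50 after each gene's start, the letters TTTAAA, which read the same on both strands, occurred in 13 of 14 glandular kallikrein windows and in 13.2% of all 32851 windows. The window of Klk1 was the one without them. The letters TATAAA, searched on both strands, occurred in none of the 14 and in 13.6% of all windows. The stretches around TTTAAA, in capitals, are shown for the detected Klk1b26 and Klk1b5 and for the undetected Klk1b16 and Klk1b24. They lie on the plus strand at chr7:44012638-44012667, chr7:44216418-44216447, chr7:44137237-44137266 and chr7:44188191-44188220, in that order.
Klk1b26: agagaatgagggtaTTTAAAatctcctgag
Klk1b5: agagaatgagggttTTTAAAgtctccctga
Klk1b16: ggagaactcaggtaTTTAAAatctcctgag
Klk1b24: gggagaatgagggtTTTAAAgtctcctgag
The letters were thus present in detected and undetected genes alike.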

How the data were processed

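Myocardial RNA of 6 mice was hybridised to 1-colour Agilent mouse arrays. The authors extracted processed signal intensities with Agilent Feature Extraction 10.7.1.1, and the deposited table holds normalized log2 values of every probe, in probe coordinates of mm9. The sorted log2 columns were identical on all 6 arrays, as after quantile normalization, and single-spot values matched between table and array files at a tolerance of 0.001. The deposited log2 values were used because membership was set on them. The 75th percentile of each processed intensity was an alternative scaling. Probes that stood well above background throughout 1 group or both were tested with limma 3.58.1 (lmFit, eBayes; R 4.3.3), with Benjamini-Hochberg adjustment over 22998 probes. Calls used a 2-fold difference with an unadjusted p under 0.05, or an adjusted p under 0.05. The fit was tested on simulated data. Arrays were grouped by sample title. Named genes were all members, list genes that were called, markers detected on all 6 arrays where a list had at most 4, the 5 genes most like each pattern, and neighbours within 500 kb; 1 marker that met this rule is not reported here. Cela2a, Aqp2, Star and the other markers outside this rule were named after their values were seen. The summed signal of a list adds 2 to the power of the log2 value over 1 probe per gene, that of highest mean. The members and lists were chosen with earlier results of these data known. Probe pairs were aligned without gaps over at least 30 bases. RefSeq windows matched all 14 glandular kallikreins apart from Egfbp2, which was matched as Klk1b26. With 3 animals per group, the number of arrays limits the precision.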

Additional observations from a re-analysis of the deposited data

How the results depend on the processing

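The log2 differences of the 4 detected probes kept their sign under all 15 settings computed for each, from 1.07 to 3.01 for Egfbp2, 0.63 to 2.29 for Klk1b5, and 0.47 to 1.29 and 0.42 to 1.56 for the Amy1 probes. Only the 75th percentile scalings and normexp could have reversed a sign, since the groups did not overlap on the deposited values. The count of these probes past the 2-fold and unadjusted p thresholds was 4. It was 1 with normexp, 2 with the slide row as a block (a single NEXN-S437E array against 3 NEXN-WT arrays), 2 with the methods' t-test and 2 to 4 without 1 array. The 2 were Egfbp2 and the first Amy1 probe without NEXN-WT replicate 1, and both Amy1 probes with the other settings. Without NEXN-WT replicate 2, Klk1b5 alone was lost. Array weights ended the call of the second Amy1 probe (difference 0.96, count 3), and the filter on all 6 arrays left Klk1b5 untested (count 3). The count past the adjusted p was 0, with 1 under either 75th percentile scaling, 3 with array weights and 0 to 1 without 1 array (1 without NEXN-WT replicate 1 or 3). Over all tested probes, 604 were past the 2-fold thresholds: 188 with normexp, 1318 with no filter, 363 with the filter on all 6 arrays, 1907 at 1.5-fold and 383 to 1020 without 1 array (lowest without NEXN-WT replicate 1, highest without NEXN-WT replicate 3). The adjusted count was 28: 17 with normexp, 0 with no filter, 4 with the filter on all 6 arrays, 48 with an intensity trend, 1217 with array weights, 0 with the methods' t-test and 6 to 121 without 1 array (lowest without NEXN-WT replicate 2, highest without NEXN-WT replicate 1; NEXN-S437E replicates 1 to 3 gave 15, 16 and 10). The share of calls that were higher was 23.0%, 12.8% with normexp, 34.8% with no filter and 41.2% at 1.5-fold. Beyond the smaller number of probes tested under the stricter filter, the lower fold at 1.5-fold and the smaller number of arrays, the cause was not tested. The deviations of same-numbered arrays correlated at -0.14, -0.03 and -0.16, so no shared deviation was seen. These values cannot tell whether the animals were paired in some other way. With the replicate block, 608 probes passed the 2-fold thresholds, 12 the adjusted p, and 4 and 0 of the kallikrein and amylase probes. Dim signal limits these results: 7 of the 11 probes were not well above background on any array.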
